A study of Bos taurus with 6 samples.

Results

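The genes described here are CAPN6 and 8 further genes of the calpain system in bovine embryonic stem cells: the calpain large subunits CAPN1, CAPN2, CAPN5, CAPN7, CAPN10 and CAPN15, the small subunit CAPNS1 and the inhibitor calpastatin, CAST. They are 9 of the 19163 genes in the deposited count table, and all 9 passed the filter on low counts that left 13001 genes for testing. They were chosen by family, with CAPN6 at their head because it was already known to be among the genes that differed most between the groups. The comparison of the groups therefore served to choose it, and the differences of the 9 genes are given as a description, without a p value. Where the number of them that met a threshold is given, in any fit, nothing is read from it. The cells were the line F7, which was derived from Holstein Friesian embryos made by fertilisation in vitro. In MC-F7 (named 1M-F7 in the labels) they grew on mouse embryonic fibroblasts (MEFs) whose division had been stopped with mitomycin C, and in MT-F7 on MEFs fixed with methanol, which are dead. Both groups had 15 passages, and both shared the same medium, with recombinant human FGF and the Wnt pathway inhibitor IWR1. By the study's methods the medium was changed daily for MC-F7 and only on alternate days for MT-F7, so the groups differ in feeding as well as in the feeder layer, and the effects of these cannot be told apart. Before RNA was taken, dissociated cells were left on gelatin for a while and only those still floating were kept, and no source used here says whether reads of mouse origin were removed. The study reports that a larger share of reads aligned to the bovine genome in MT-F7 than in MC-F7. It proposes that the fixed feeder reduced contamination by feeder cells, and the part of this in the levels given here was not tested. Each group had 3 libraries of this 1 line, and whether they came from separate cultures is not stated. The study describes its data in general as averages of technical replicates, so SDs and tests may cover technical variation only.

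Calpains are proteases of the cytosol that depend on calcium and cut their substrates at a few sites, which changes the substrate's activity rather than destroying it. The conventional enzymes, µ-calpain and m-calpain, each pair a large catalytic subunit (CAPN1 or CAPN2) with the shared small subunit CAPNS1, and calpastatin holds both in check. They are known for cutting proteins that tie the cytoskeleton to cell adhesions. CAPN6 stands apart in the family because it lacks the catalytic cysteine and is not thought to act as a protease. Its protein has been described to bind and stabilise microtubules and to hold the exchange factor GEF-H1 there, and the gene is known for its expression in placenta and in embryonic muscle.

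The libraries held between 21958386 and 24933430 counts on genes. A gene at 3 counts, the smallest amount taken as detected, stood at 0.12 to 0.137 counts per 1000000 counts on genes (CPM), and this limit covers counting error only. Replicate 3 of both groups had the highest share of counts on genes of the mitochondrial genome (28.3% in MC-F7 and 27.9% in MT-F7, against 16.3% to 23.2% in the other 4 libraries). Levels of 1 gene across libraries are given in CPM after TMM normalisation. A log2 fold change is positive where MT-F7 was higher, and its standard error (SE) comes from edgeR's quasi-likelihood fit over all 13001 genes. In this fit 23.2% of the tested genes had an adjusted p under 0.05, and in 40.0% the CPM values of the groups did not overlap.

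CAPN6 (Entrez gene 539360) went from the least abundant of the 9 genes in MC-F7 to a middle place in MT-F7. It stood at 2.17, 2.65 and 1.92 CPM in the MC-F7 libraries, from 49, 64 and 41 counts. In the MT-F7 libraries it stood at 49.6, 76.0 and 50.2 CPM, from 1246, 1968 and 1183 counts. The lowest MT-F7 library thus lay far above the highest MC-F7 library, while replicate 2 was the highest library within either group. The log2 fold change was 4.70 (SE 0.237), a 26.0-fold higher level, which was the 12th highest log2 fold change of all tested genes. Leaving out single libraries moved it between 4.47 and 4.84. RNA from bulk cultures cannot tell more RNA per cell from more cells that express the gene.

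Of the other 8 members, CAPN5 alone changed by more than a doubling or halving. Together, 3 of the 9 log2 fold changes were positive and 6 negative, with a median of -0.069, where that of all tested genes was -0.0026. The threshold of 0.05 on the adjusted p was met by 2 of the 9 (CAPN6 higher and CAPN5 lower), beside 23.2% of all tested genes (11.9% higher and 11.3% lower). In 4 of the 9 the groups did not overlap, CAPN6 and CAPN7 being higher in MT-F7 and CAPN2 and CAPN5 lower, beside 40.0% of all tested genes (19.9% higher and 20.0% lower). These counts include the gene that led to the choice of the family, and nothing is read from them.

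**Figure D1:**
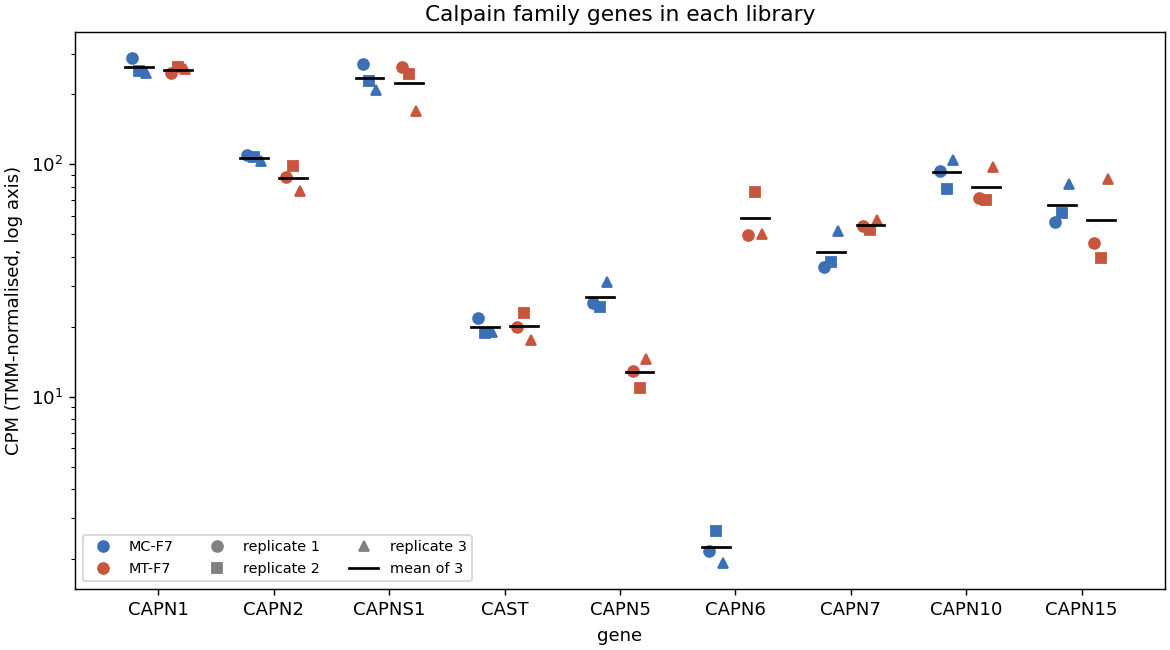
Level of each of the 9 genes in each library, in CPM on a log axis, with MC-F7 in blue, MT-F7 in red, the replicate number as the symbol and the mean of 3 libraries as a bar. CAPN6 runs from 1.92 to 2.65 CPM in MC-F7 and from 49.6 to 76.0 CPM in MT-F7, CAPN5 is lower in MT-F7 without overlap, and the remaining 7 genes lie within 0.38 of 0 in log2 fold change.

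The genes of the conventional calpains were abundant and close to each other in the 2 groups. CAPN1 (281661), the catalytic subunit of µ-calpain, stood at 288, 251 and 247 CPM in MC-F7 and at 246, 262 and 256 CPM in MT-F7. These values overlapped, and the log2 fold change was -0.042 (SE 0.144). Its sign turned without MC-F7 replicate 1 and in limma on the deposited TPM values, which for this gene carry no adjustment for library depth. CAPN2 (281662), the catalytic subunit of m-calpain, stood at 109, 108 and 103 CPM in MC-F7 and at 88.1, 98.7 and 76.5 CPM in MT-F7. Each MT-F7 library was below each MC-F7 library for this gene, by a log2 fold change of -0.28 (SE 0.148), and the spread was wider in MT-F7 (a coefficient of variation of 12.7%, against 2.89% in MC-F7).

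The partners of these enzymes, the small subunit and the inhibitor, overlapped between the groups. CAPNS1 (281664) stood at 270, 229 and 208 CPM in MC-F7 and at 261, 244 and 169 CPM in MT-F7. Replicate 3 was the lowest library in both groups, at 0.834 times the mean of the other 2 libraries in MC-F7 and 0.670 times in MT-F7. The log2 fold change was -0.069 (SE 0.184), and its sign turned without MC-F7 replicate 1 and without MT-F7 replicate 3. It also turned in limma on the deposited TPM values, which for this gene carry no adjustment for library depth. CAST (281039) stood at 21.9, 18.8 and 19.1 CPM in MC-F7 and at 20.0, 22.9 and 17.5 CPM in MT-F7, a log2 fold change of 0.017 (SE 0.167) whose sign also turned when single libraries were left out.

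Among the calpains that work without the small subunit, CAPN5 was lower in MT-F7 and CAPN7 lay slightly higher. CAPN5 (536988), a calpain with a C2 domain that is best known from an inherited inflammatory disease of the eye, stood at 25.3, 24.4 and 31.2 CPM in MC-F7. In MT-F7 it stood at 12.9, 10.9 and 14.6 CPM. The groups did not overlap, and the log2 fold change of -1.08 (SE 0.177) amounts to a 2.11-fold higher level in MC-F7. Leaving out single libraries kept it between -1.19 and -0.96. The RefSeq gene table places OMP, another protein-coding gene, on top of CAPN5, and the strand setting of the read counting is not given in the sources used here.

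CAPN7 (618048), whose protein carries domains that bind the ESCRT-III membrane-cutting machinery, stood at 36.3, 37.9 and 51.9 CPM in MC-F7 and at 54.4, 51.9 and 57.4 CPM in MT-F7. The groups all but met at 51.9 CPM, where MT-F7 replicate 2 lay just above MC-F7 replicate 3. The log2 fold change was 0.38 (SE 0.168), and it was 0.55 without MC-F7 replicate 3, the library that lay apart from the other 2 of its group.

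For CAPN10 and CAPN15 replicate 3 lay further from the mean of the other libraries of its group than the group means lay from each other. CAPN10 (789674), a gene known from studies of diabetes susceptibility, stood at 94.0, 78.3 and 105 CPM in MC-F7 and at 71.3, 70.6 and 97.4 CPM in MT-F7. CAPN15 (522068), the vertebrate counterpart of the fly gene small optic lobes, stood at 56.3, 62.1 and 82.4 CPM in MC-F7 and at 45.9, 39.7 and 86.7 CPM in MT-F7. Replicate 3 was the highest library of both genes in both groups, and for CAPN15 in MT-F7 it was 2.03 times the mean of the other 2. The log2 fold changes were -0.21 (SE 0.175) for CAPN10 and -0.22 (SE 0.259) for CAPN15, and that of CAPN15 was -0.65 without MT-F7 replicate 3. With both libraries numbered 3 left out, a choice made after the values had been seen, CAPN15 stood at -0.45 and CAPN7 at 0.53, and 4 of the 9 members had an adjusted p under 0.05 beside 32.4% of all tested genes. The libraries numbered 3 are also those with the largest mitochondrial share, and the part of that share in these values was not tested.

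Levels of different genes were compared per gene length, with the deposited TPM values rescaled to 1000000 in each library. For each of the 9 members, the deposited value was the count divided by 1 number that was the same in all 6 libraries. In MC-F7 the order from the top was CAPNS1 with 132 ± 18.7, CAPN1 with 116 ± 10.5, CAPN10 with 51.0 ± 5.49 and CAPN2 with 40.4 ± 2.40 TPM (SD, n = 3). CAPN15 with 17.5 ± 3.14 and CAPN7 with 15.5 ± 2.72 TPM followed, then CAPN5 with 6.28 ± 0.652, CAST with 4.26 ± 0.360 and CAPN6 with 0.807 ± 0.167 TPM. Only the neighbours CAPNS1 and CAPN1, and CAPN15 and CAPN7, overlapped in this order.

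In MT-F7 the first 4 places and their order were the same, while CAPN6 had moved by its mean from the ninth place to the fifth. It stood at 22.3 ± 6.60 TPM, and its libraries overlapped with those of CAPN2 above it (35.2 ± 6.02 TPM) and of CAPN7 below it (21.4 ± 0.173 TPM). CAPN6 was above CAPN7 only in MT-F7 replicate 2 (29.9 against 21.2 TPM). In MT-F7 replicate 3 it was also below CAPN15 (18.1 against 22.9 TPM). CAPN5, at 3.15 ± 0.311 TPM, had fallen behind CAST (4.58 ± 0.821 TPM) to the last place, without overlap. Among 16900 genes with a value above 0 in at least 1 library, 31.2% lay below CAPN6 in MC-F7 and 77.7% in MT-F7. CAPN1 stayed above 95.2% and 95.3% of these genes.

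**Figure D2:**
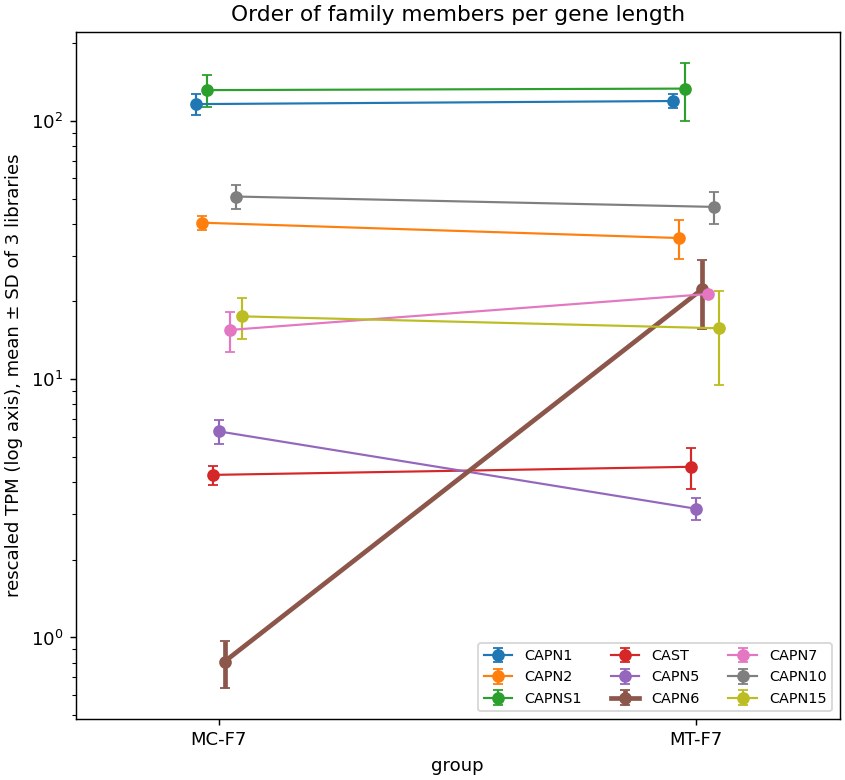
Level per gene length of the 9 genes in the 2 groups, as TPM rescaled to 1000000 per library on a log axis, with points for the mean and bars for the SD of 3 libraries. The mean of CAPN6 climbs from 0.807 to 22.3 TPM, past the means of CAST, CAPN5, CAPN15 and CAPN7. Its MT-F7 libraries overlap with those of CAPN15 and CAPN7. The lines of CAPNS1, CAPN1, CAPN10 and CAPN2 keep their order.

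CAPN6 made up a larger share of the family's RNA in MT-F7, while the shares of CAPN1 and CAPN10 overlapped between the groups. Of the summed TPM of the 12 calpain large subunits in the table, CAPN6 made up 0.302%, 0.406% and 0.266% in the MC-F7 libraries. In the MT-F7 libraries it made up 7.48%, 10.7% and 6.78%. CAPN1 made up 46.6% on average in MC-F7 and 44.9% in MT-F7, and CAPN10 made up 20.4% and 17.5%. The sum itself was 249 ± 5.67 TPM in MC-F7 and 266 ± 12.8 TPM in MT-F7, again with overlap.

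Ratios between members within a library do not depend on how libraries are scaled. CAPN2 was 53.3, 42.9 and 57.0 times CAPN6 in the MC-F7 libraries and 1.87, 1.37 and 1.61 times CAPN6 in the MT-F7 libraries. CAPN1 was 2.74 to 3.09 times CAPN2 in MC-F7 and 3.11 to 3.93 times in MT-F7, which did not overlap, with the highest value in MT-F7 replicate 3. The small subunit was 0.838 ± 0.0550 of the sum of CAPN1 and CAPN2 in MC-F7 and 0.858 ± 0.182 in MT-F7. Calpastatin was 0.0272 ± 0.000673 of this sum in MC-F7 and 0.0295 ± 0.00292 in MT-F7, so that its RNA was low beside that of the enzymes it inhibits in both groups.

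**Figure D3:**
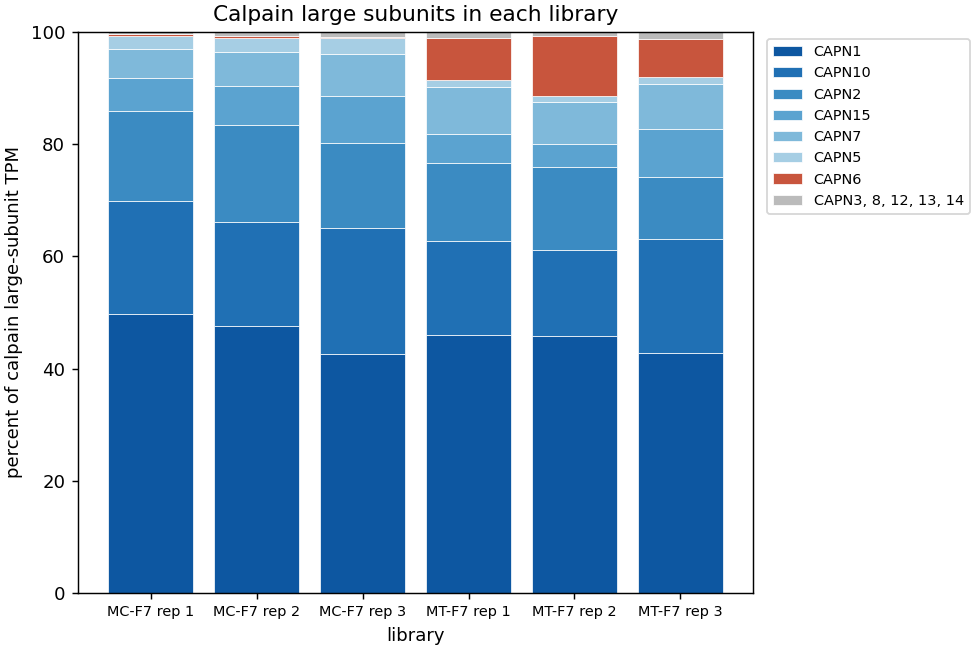
Share of each calpain large subunit in the summed TPM of the 12 large subunits, in percent, for each library as a stacked bar. The CAPN6 segment (red) is under 0.41% in the 3 MC-F7 libraries and between 6.78% and 10.7% in the 3 MT-F7 libraries, and CAPN1 is the largest segment in each library.

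Other genes of the calpain family were near or below the limit of detection, apart from CAPN3 and CAPN12. CAPN3 (281663), the calpain of skeletal muscle whose loss causes a limb-girdle muscular dystrophy, stood at 1.11, 1.58 and 2.57 CPM in MC-F7 and at 4.18, 3.51 and 6.37 CPM in MT-F7. Each MT-F7 library was higher (log2 fold change 1.42, SE 0.349, adjusted p = 0.0103), and the gene still passed whichever library was left out. CAPN12 (530544), known from the hair follicle, stood at 0.708, 1.37 and 1.54 CPM in MC-F7 and at 0.558, 0.193 and 0.594 CPM in MT-F7. These values did not overlap, but the difference did not pass (log2 fold change -1.42, SE 0.515, adjusted p = 0.0635). It passed without MC-F7 replicate 1, in edgeR's likelihood ratio test and with a replicate block (adjusted p = 0.040, 0.016 and 0.041). CAPN8, CAPN13 and CAPN14 had at most 3 counts in any library and were not tested, and CAPN9, CAPN11 and CAPNS2 are not analysed here. Per length, CAPN3 reached 2.22 ± 0.599 TPM in MT-F7, below each of the 9 members.

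The relatives of the small subunit, which share its penta-EF-hand calcium-binding fold, gave no call. PDCD6, PEF1, SRI and GCA were tested, and 0 of the 4 had an adjusted p under 0.05 by edgeR or by DESeq2, with 0 at an unadjusted p under 0.05. Their groups overlapped, and their log2 fold changes ran from -1.04 for GCA, which was under 1 CPM in both groups, to 0.38 for SRI (SEs 0.631 and 0.223).

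Of 24 proteins long described as cut by conventional calpains, 5 were higher in MT-F7 and 0 lower at an adjusted p under 0.05, where 23.2% of all tested genes were called (11.9% higher and 11.3% lower). The median log2 fold change of the 24 was 0.13. SPTAN1, the spectrin whose breakdown product is the usual readout of calpain activity, rose from 320 ± 24.4 to 492 ± 41.0 CPM (log2 fold change 0.62, SE 0.151, adjusted p = 0.0097). The intermediate filament genes DES (desmin) and VIM (vimentin) and the integrin ITGB3 rose as well (adjusted p = 0.0013, 0.017 and 0.0095), by 1.00, 0.82 and 0.96 on the log2 scale, and BAX, of the BCL2 family, by 0.52 (adjusted p = 0.030). The remaining 19 included the adhesion genes TLN1, VCL, FLNA and PTK2, with log2 fold changes of 0.078, -0.18, 0.19 and 0.14. VIM did not pass without MC-F7 replicate 2 or MT-F7 replicate 2 (adjusted p = 0.073 and 0.092), nor did BAX (0.12 and 0.081), which left 3 calls in each of these fits. BAX also did not pass without MC-F7 replicate 3 or MT-F7 replicate 3 (adjusted p = 0.065 and 0.061). With both libraries numbered 3 left out, 9 passed, in a fit that called 32.4% of all tested genes. VIM also did not pass in limma on log2(TPM + 1) or log2(TPM + 0.1) (adjusted p = 0.115 and 0.071). ITGB3 did not pass in limma on log2(TPM + 1) (adjusted p = 0.061). These are RNA levels of the substrates, and cutting of the proteins was not measured.

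Genes of microtubule-associated proteins were higher or lower in several cases. Of the 25 genes of this list 24 were tested, and 15 had an adjusted p under 0.05, 11 higher and 4 lower in MT-F7, where 23.2% of all tested genes were called. The median log2 fold change was 0.41. MAP2 and MAP1A, structural proteins that stabilise microtubules in neurons, rose from 9.37 ± 2.25 to 41.2 ± 8.09 CPM and from 24.5 ± 2.52 to 92.1 ± 14.1 CPM (log2 fold changes 2.13 and 1.91, adjusted p = 1.6e-05 and 6.4e-06). TPPP3, a tubulin polymerisation promoter, and DCLK1, a doublecortin-like kinase, were higher by 1.38 and 1.52 on the log2 scale (adjusted p = 0.0025 and 0.016). MAP7, which recruits kinesin in epithelial cells, fell from 16.4 ± 1.11 to 4.58 ± 0.393 CPM (log2 fold change -1.84, adjusted p = 1.6e-05). The list thus held rises and falls together, and the 15 include the destabilising stathmin STMN1 among the higher genes and TPPP among the lower ones. DCLK1 did not pass without MC-F7 replicate 2 or MT-F7 replicate 2 (adjusted p = 0.0635 and 0.0911), and each of these fits left 10 calls. It also did not pass in limma on log2(TPM + 1) (adjusted p = 0.062).

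The genes around GEF-H1 gave no call in the edgeR fit. ARHGEF2, which encodes GEF-H1, stood at 85.2, 84.1 and 85.7 CPM in MC-F7 and at 99.8, 89.7 and 102 CPM in MT-F7. Its groups did not overlap, but the log2 fold change of 0.19 (SE 0.138) had an adjusted p of 0.35. In limma on log2(TPM + 1), which used the deposited TPM without rescaling, the gene passed (adjusted p = 0.0229). That was the only 1 of the 16 fits, the main fit included, in which it passed. Of the 14 tested genes of the list, which include RHOA, RAC1, CDC42, ROCK1 and ROCK2, 0 had an adjusted p under 0.05 by edgeR's quasi-likelihood test and 0 by DESeq2, with 1 at an unadjusted p under 0.05. Their median log2 fold change was 0.18, and 12 of the 14 were above 0. Without MT-F7 replicate 3, 2 of them passed.

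Genes that set the calcium supply of conventional calpains gave 4 calls among 17 tested genes, 3 higher and 1 lower in MT-F7, a share close to the 23.2% of all tested genes, and their median log2 fold change was 0.33. The sarcoplasmic or endoplasmic reticulum pump ATP2A3 fell from 10.6 ± 0.267 to 3.08 ± 0.752 CPM (log2 fold change -1.79, SE 0.226, adjusted p = 1.2e-04) and still passed whichever library was left out. The plasma membrane pump ATP2B4, the store-operated channel ORAI2 and the Golgi pump ATP2C1 were higher by 1.44, 0.68 and 0.54 on the log2 scale (adjusted p = 0.0205, 0.012 and 0.049). Without MC-F7 replicate 2 these 3 genes no longer passed (adjusted p = 0.075, 0.057 and 0.11), which left 1 call. Without MT-F7 replicate 3 ATP2B4 was at an adjusted p of 0.061, and ATP2C1 passed in 1 of the 6 such fits. With both libraries numbered 3 left out, 8 of the list passed, beside 32.4% of all tested genes.

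**Figure D4:**
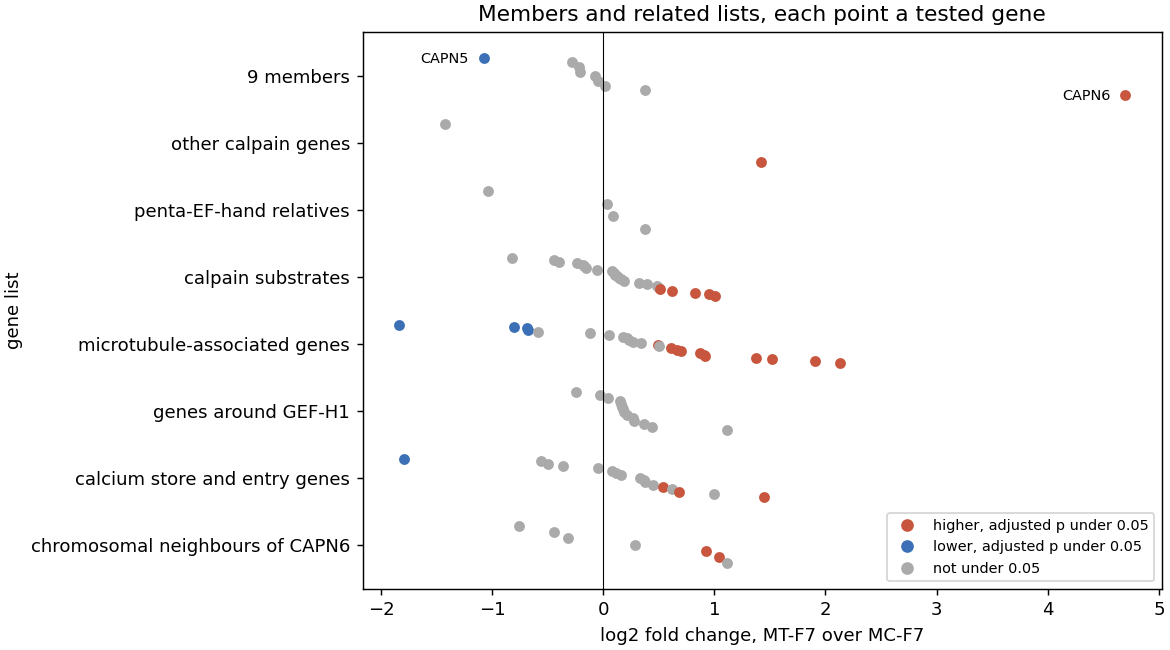
Log2 fold change of MT-F7 over MC-F7 for the 9 members and for each tested gene of the related lists, with 1 point per gene, red where higher and blue where lower at an adjusted p under 0.05, and grey otherwise. CAPN6, at 4.70 and chosen for its large change, lies to the right of each gene of the related lists. The microtubule-associated genes spread from -1.84 to 2.13.

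CAPN6 lies on the X chromosome in the RefSeq gene table (assembly ARS-UCD2.0), and its nearest protein-coding neighbours are PAK3 and CHRDL1 on one side and DCX and SERTM2 on the other. Of the 10 neighbours taken, 5 on each side, 7 were tested and 2 were called, both higher in MT-F7, beside 23.2% of all tested genes. CHRDL1, a secreted BMP antagonist, rose from 4.82 ± 1.18 to 9.95 ± 0.694 CPM (log2 fold change 1.04, SE 0.223, adjusted p = 0.0048). ALG13, of protein glycosylation, had a log2 fold change of 0.92 (adjusted p = 0.028) and did not pass without MC-F7 replicate 1, MC-F7 replicate 2 or MT-F7 replicate 3 (adjusted p = 0.074, 0.066 and 0.10). PAK3, a kinase next to CAPN6, had 1.11 (SE 0.457, adjusted p = 0.099), RTL9 had -0.76 (SE 0.504, adjusted p = 0.31), and LOC107132045 had -0.32 (SE 0.203, adjusted p = 0.29).

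DCX (787968), the neuronal microtubule protein doublecortin and the neighbour on the other side, had 0 counts in the 3 MC-F7 libraries. It had 6, 4 and 6 counts in the MT-F7 libraries, at least 1.63-fold higher when MC-F7 is set at 3 counts per library, and it was too low to be tested. SERTM2 and TRPC5 had at most 3 counts in any library. The largest log2 fold change among the tested neighbours, 1.11, was below that of CAPN6. Because CAPN6 was chosen for its large change, nothing is read from this order.

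The genes whose profile over the 6 libraries was most like that of CAPN6 were MAB21L1, DLX5, CDH9, FGF10 and NR2F1. Likeness was measured as the root mean square difference between log2 CPM profiles (prior count 2) centred on their means, over 11930 tested genes that averaged 1 CPM or more, and these 5 differed by 0.35 to 0.44. DLX5, a homeobox gene of ectodermal placodes and limb, came closest in level as well, with 3.45, 2.74 and 2.71 CPM in MC-F7 and 43.8, 61.1 and 38.5 CPM in MT-F7. FGF10, a growth factor, went from 0.780 ± 0.136 to 13.9 ± 2.83 CPM, and the nuclear receptor gene NR2F1 from 1.52 ± 0.168 to 25.0 ± 6.20 CPM. MAB21L1, a gene of eye development, and CDH9, a cadherin, had at most 2 counts in any MC-F7 library and stood at 4.23 ± 1.03 and 2.11 ± 0.702 CPM in MT-F7. Their MC-F7 values do not exceed the prior count of 2, so their place in this order depends on it. The fitted log2 fold changes of MAB21L1 and CDH9 were 6.43 and 6.73, against 4.70 for CAPN6. Like FGF10, they averaged 1 CPM or more only through the MT-F7 libraries. All these profiles are led by the difference between the groups, which also chose CAPN6. By Pearson's r over the 6 libraries, 0 of the first 5 genes were the same.

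**Figure D5:**
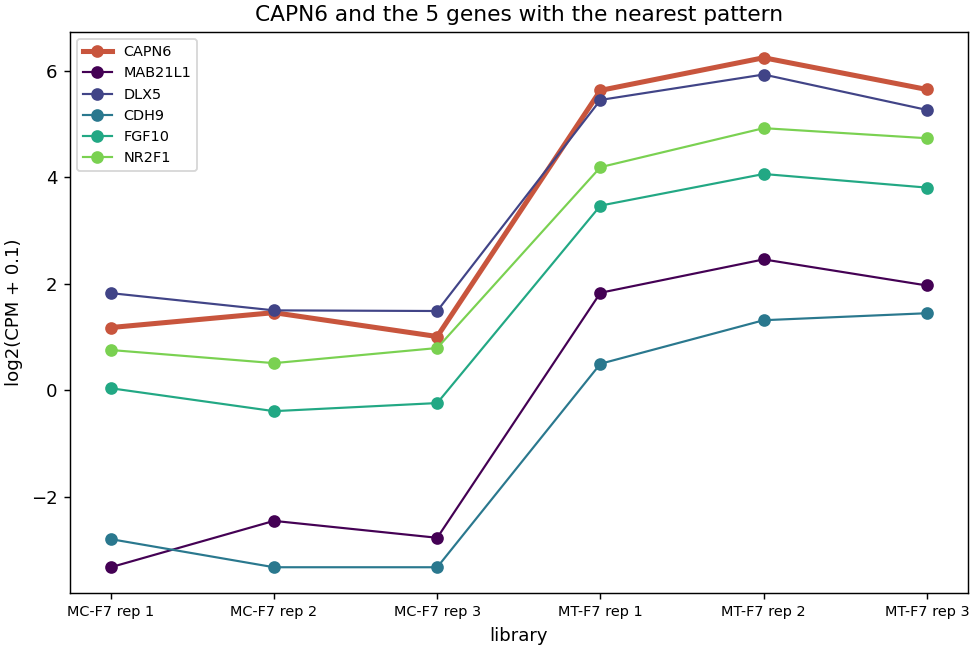
Level of CAPN6 and of the 5 genes with the nearest centred profile in each library, as log2(CPM + 0.1), with lines that only join the points of 1 gene. Each gene is low in the 3 MC-F7 libraries and high in the 3 MT-F7 libraries, and MT-F7 replicate 2 is the highest library for 5 of the 6 genes, CDH9 being the exception.

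Markers of tissues in which CAPN6 is known did not move together. Of 12 trophectoderm and placenta genes in the count table, 7 were tested, with 1 higher and 3 lower in MT-F7. For this and the muscle list, the share to set beside the calls is 23.2% of all tested genes (11.9% higher and 11.3% lower). CDX2 and HAND1 had 0 counts in all 6 libraries and GATA3 was under 1 CPM, while PEG10 rose from 85.6 ± 11.2 to 353 ± 11.7 CPM (log2 fold change 2.05, adjusted p = 2.6e-06) and the epithelial keratin KRT18 fell from 859 ± 167 to 193 ± 12.5 CPM (log2 fold change -2.15, adjusted p = 4.6e-06). Summed over the list, the level was 1903 to 2931 CPM in MC-F7 and 1034 to 1159 CPM in MT-F7, but in MC-F7 nearly all of this sum was KRT8 and KRT18, which are general epithelial keratins, so that its fall describes these keratins and not the list. Of 9 muscle lineage genes 5 were tested, and PAX3, TNNT1 and DES, the last of which is also on the substrate list, were higher (log2 fold changes 3.60, 1.79 and 1.00, adjusted p = 9.2e-04, 8.5e-06 and 0.0013) and MYH3 lower (-1.95, adjusted p = 0.0033), although MYH3 did not pass in limma on log2(TPM + 1) or log2(TPM + 0.1) (adjusted p = 0.154 and 0.058). MYF5 and MYOG, which define the lineage, had 0 counts in all libraries, and the summed level of the list was 103 to 128 CPM in MC-F7 and 187 to 221 CPM in MT-F7.

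Markers of pluripotent, fibroblast and neural cells were counted in the same way. The counts are on bovine genes, so the fibroblast list cannot tell reads from the mouse feeder apart from those of bovine cells. At an adjusted p under 0.05, 23.2% of all tested genes were called (11.9% higher and 11.3% lower). Of 6 pluripotency genes in the table, all 6 were tested and 5 were lower in MT-F7. Their summed levels were 1353 to 2027 CPM in MC-F7 and 740 to 856 CPM in MT-F7, and SALL4 had a log2 fold change of 0.33 (adjusted p = 0.29). Of 13 fibroblast genes, 4 were higher and 1 lower in MT-F7, with sums of 293 to 387 CPM in MC-F7 and 601 to 765 CPM in MT-F7. ACTA2 and COL3A1 led the rise (log2 fold changes 1.86 and 1.65, adjusted p = 3.5e-05 and 8.1e-05), while DCN, LUM, PDGFRA and COL1A2 overlapped between the groups. ACTA2 alone went from 85.3 ± 16.4 to 309 ± 71.2 CPM, a large part of the rise in the sum. TWIST2 was the gene called lower (log2 fold change -2.15, adjusted p = 0.011). PRRX1 lay lower without overlap but was not called (log2 fold change -1.61, adjusted p = 0.054). Of 8 neural genes 5 were tested and 3 were higher, among them MAP2, which is also on the microtubule list. PAX6 had a log2 fold change of 2.92 (adjusted p = 7.7e-07), while NEUROG2 had at most 11 counts in MC-F7 and no count in MT-F7. The sums were 546 to 645 CPM in MC-F7 and 780 to 804 CPM in MT-F7. NES, the largest part of these sums, went from 312 ± 25.0 to 412 ± 51.1 CPM and was not called (adjusted p = 0.083). TUBB3 went from 202 ± 16.7 to 174 ± 13.2 CPM, with overlap (adjusted p = 0.31). The part of these shifts in the level of CAPN6 was not tested.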

How the data were processed

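RNA-seq of F7 cells on 2 feeder layers was used, 3 libraries each. Per the labels, the authors aligned reads with HISAT2 2.0.5 and counted them per gene with featureCounts 1.5.0-p3. The genome came from Ensembl, and its build, the strand setting and any removal of mouse reads are not given in the sources used here. The deposited raw counts were used for tests, and their columns headed M1 were read as the 1M libraries of the same number. The TPM values that the authors deposited do not add up to 1000000 per library and were rescaled to that sum, with the first line kept for each of 159 repeated identifiers.

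Genes were filtered with filterByExpr (minimum count 10, minimum total 15) and compared by edgeR 4.0.16 (R 4.3.3; TMM, quasi-likelihood, two-sided, Benjamini-Hochberg over 13001 genes). The standard error is the log2 fold change over the root of F. Symbols for 19074 of 19163 genes came from the RefSeq table. IFNT was read as IFNT2, TDGF1 as CRIPTO, and PAG1 was dropped because the symbol belongs to another gene in that table. Alternatives used DESeq2 1.42.0, limma 3.58.1 on log2(TPM + 1) and log2(TPM + 0.1) of the deposited TPM without rescaling, RLE factors, the likelihood ratio test, other filters, a replicate block, single libraries left out and both libraries numbered 3 left out. The steps were checked on simulated data.

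Named were the 9 members, other calpain genes in the table, up to 5 called genes per list with the largest change, ARHGEF2, up to 3 neighbours per side, the 5 genes nearest to CAPN6 and marker examples. STMN1, TPPP, TRPC5 and the genes printed as uncalled examples were chosen after their values were seen. Members and lists were chosen with earlier results of these data known. No protein or promoter sequence was at hand, so the planned comparison of the proteins was not made.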

Additional observations from a re-analysis of the deposited data

How the results depend on the processing

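Over the 15 alternative fits the log2 fold change ranged from 2.02 to 4.84 for CAPN6 and from -1.19 to -0.39 for CAPN5, as a description of the comparison that chose CAPN6. The smallest sizes came from limma on log2(TPM + 1). Both limma fits used the deposited TPM without rescaling, whose low sums make the pseudocount weigh more. For the members these values also carry no adjustment for library depth. Over the genes of the main fit, the median log2 fold change in limma was 0.047 with a pseudocount of 1 and 0.109 with 0.1. In the main fit it was -0.0026. CAPN3 passed in all but limma on log2(TPM + 1) (adjusted p = 0.053). The number of genes called over the whole table (3016) ran from 1914 to 3093 when single libraries were left out and was lowest without MC-F7 replicate 2. The main fit did not pair libraries by replicate number. Deviations of same-numbered libraries from their group means had correlations of 0.134, 0.0445 and 0.417 for numbers 1, 2 and 3. Whether same-numbered libraries shared a batch is not stated in the sources used here and was not tested. With the replicate block 4674 genes were called, 3 members (CAPN7 added), 2 other calpain genes (CAPN3 and CAPN12), 1 small subunit relative, 10 calpain substrates, 2 genes around GEF-H1 and 8 calcium genes. The likelihood ratio test also called 2 other calpain genes. With both libraries numbered 3 left out, 4 members, 9 substrates, 2 genes around GEF-H1 and 8 calcium genes were called. CAPN7 was also added in both limma fits. Limma on log2(TPM + 1) called 0 other calpain genes, 9 microtubule genes, 1 gene around GEF-H1 (ARHGEF2) and 1 neighbour of CAPN6, and limma on log2(TPM + 0.1) called 1 neighbour. With single libraries left out, the calls ranged from 2 to 3 for members, 1 to 2 for other calpain genes, 3 to 6 for substrates, 0 to 2 around GEF-H1, 1 to 5 for calcium genes and 1 to 2 for neighbours.

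The sign turned only in CAPN1, CAPNS1 and CAST among the genes refitted. CAPN1 was 0.087 and 0.091 in limma with pseudocounts of 1 and 0.1, and CAPNS1 was 0.044 and 0.045 there and 0.034 with both libraries numbered 3 left out. With single libraries left out, the log2 fold change ran from -0.087 to 0.032 for CAPN1, from -0.20 to 0.093 for CAPNS1 and from -0.084 to 0.10 for CAST. The deposited TPM, unscaled, put CAPN6 at 3.66 in MT-F7 in place of 22.3, which is the change of unit. Pearson's r shared 0 of the 5 genes most like CAPN6. Except for the changes of unit and scale named here, the cause was not tested. Depth limited CAPN8, CAPN13, CAPN14, DCX, SERTM2 and TRPC5, for which only large differences could have been seen.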
